A study of Homo sapiens with 6 samples.

Results

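The 37 genes on the human mitochondrial chromosome comprise 13 messenger RNA, 2 ribosomal RNA and 22 transfer RNA genes, and their counts were followed in total RNA sequencing of HEK293 cells. They were found by chromosome and by symbols starting MT- in GENCODE 29, and all 37 were among the 60675 gene rows of the count table. HEK293 is an established human line of embryonic kidney origin. There were 3 libraries of wild type cells labelled control and 3 labelled MOCS2 RNAi knockdown, all grown in high glucose medium with serum and Geneticin. The kind of RNAi construct, and whether a line was 1 clone or a pool, were also not given in the sources used here. MOCS2 encodes both subunits of the enzyme that makes molybdopterin, on the way to the molybdenum cofactor. Nothing in the labels says that the 3 libraries of a group came from separate cultures, so p-values measure the spread between these libraries, which may be technical.

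Mitochondrial DNA is a small circle transcribed along its whole length from both strands, which are called heavy and light. The long transcripts are cut mainly at the transfer RNAs that lie between the other genes, and the freed messenger RNAs encode core subunits of the respiratory chain and of ATP synthase. The ribosomal RNAs form the mitochondrial ribosome, which translates these messengers alone. Of the 37 genes, 28 are annotated on the plus strand of the reference, which carries the heavy-strand transcripts, and 9 on the minus strand, namely the light-strand transcripts of MT-ND6 and 8 transfer RNAs.

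Reads assigned to genes numbered 17958632 to 22171106 per library. MOCS2 RNA, the target, ranged from 57.8 to 66.6 CPM in controls and from 58.9 to 69.8 CPM in the knockdown-labelled libraries (CPM, the read count set against the library's total, which was scaled by edgeR's TMM factor; edgeR adjusted p = 0.976). The target RNA thus goes against the label, and every direction below describes the knockdown-labelled libraries and says nothing of a fall in MOCS2 RNA. Of 7 HEK293 markers all were detected, with VIM, KRT8, NEFL and KRT18 the highest, while 3 of 6 fibroblast and 4 of 6 blood markers stayed under 1 CPM in every library. The HEK293 marker PAX2 was the lowest of its list, at 0.905 to 1.62 CPM over the libraries of both groups. Higher than PAX2 were the fibroblast markers COL1A1 (4.73 to 9.81 CPM) and COL3A1 (2.15 to 9.94 CPM) and the blood marker LYZ (2.2 to 3.55 CPM). Reads outside genes made up 37.5% of uniquely aligned reads in knockdown 2 and 21.5% to 25% in the other 5 libraries, so knockdown 2 stands apart, and results are given with and without it where it matters.

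The groups separated in the balance between ribosomal and messenger RNA from the mitochondrial chromosome, a ratio added after its values were seen. For each read in the 13 messenger RNA genes, 0.30, 0.199 and 0.319 reads fell in the 2 ribosomal RNA genes in control 1, 2 and 3, against 0.597, 0.644 and 0.459 in the knockdown-labelled libraries. Every one of the latter was above every control. The ratio averaged 0.273 ± 0.0644 in controls and 0.566 ± 0.0959 in the knockdown-labelled libraries (SD, n = 3 each), 2.08 times as high, with an exact permutation p = 0.1 (two-sided), the smallest that this test can give for 3 against 3 libraries, so it cannot reach 0.05. Over the 11 values tested in this way the Benjamini-Hochberg adjusted p was 0.275. The 11 include this ratio and its MT-RNR1 and MT-RNR2 parts, added after the values were seen, which lowers the adjusted p. Among 18267 genes tested across the table, 26.8% had CPM values that did not overlap between the groups.

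Both ribosomal RNAs shared in this. MT-RNR1, the RNA of the small ribosomal subunit (positions 648 to 1601 of the mitochondrial chromosome, GRCh38, plus strand), had 0.0357, 0.0277 and 0.0429 reads per messenger read in the controls and 0.0661, 0.057 and 0.0632 in the knockdown-labelled libraries. For MT-RNR2, the RNA of the large subunit (positions 1671 to 3229, plus strand), these ratios were 0.265, 0.172 and 0.276 in the controls and 0.53, 0.587 and 0.396 in the knockdown-labelled libraries. Neither overlapped between groups (exact permutation p = 0.1 for each, adjusted 0.275 over 11 values). Leaving out 1 library at a time left the difference in the combined ratio between 0.255 (without knockdown 2) and 0.347 (without knockdown 3). Its sign could not change, since the groups did not overlap. Set against the 3 cytochrome oxidase messengers alone, the ratio was 2.14 times as high in the knockdown-labelled libraries, and against the 7 complex I messengers alone 1.75 times, again with no overlap.

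**Figure D1:**
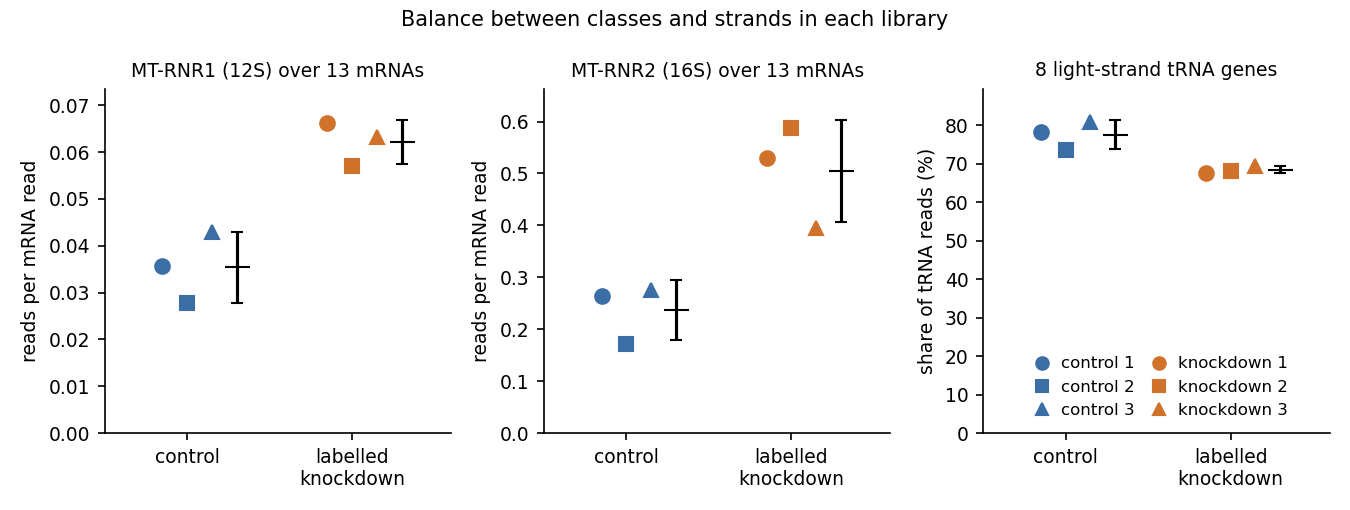
Reads of MT-RNR1 (left) and MT-RNR2 (middle) per read in the 13 mitochondrial mRNA genes, and the share of mitochondrial tRNA reads in the 8 light-strand tRNA genes in percent (right), for each library; black marks are group means with SD over 3 libraries. In the first 2 panels all 3 libraries labelled knockdown lie above all 3 controls, and in the right panel they lie below them, at 67.7% to 69.5% against 73.7% to 81%.

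Before sequencing, ribosomal RNA had been depleted with Ribo-Zero Gold, a kit that also takes out mitochondrial ribosomal RNA, so the reads of MT-RNR1 and MT-RNR2 are what the depletion left. Cellular level and depletion therefore cannot be told apart in these counts. Non-unique alignments, where reads from repeated nuclear genes would fall, numbered 1.33, 1.09 and 1.66 per gene read in control 1, 2 and 3 and 1.35, 1.66 and 1.24 in the knockdown-labelled libraries. Those values overlapped between the groups and were highest in control 3 and knockdown 2, and their part in the ratio was not tested. MT-RNR2 outnumbered MT-RNR1 by 6.19 to 10.3 times, the highest ratio being in knockdown 2.

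As levels against all genes, the ribosomal RNAs leaned the same way with much wider spread. MT-RNR1 stood at 440.2, 384 and 753 CPM in control 1, 2 and 3 and at 615, 1119.6 and 613 CPM in the knockdown-labelled libraries 1, 2 and 3. The values overlapped between groups (log2 fold change 0.57 with SE 0.30, edgeR adjusted p = 0.299; 95% interval -0.08 to 1.23), and the log2 fold change was 0.22 without knockdown 2 and 0.92 without control 3. MT-RNR2 stood at 3262, 2373 and 4849 CPM in control 1, 2 and 3 and at 4934, 11533 and 3837 CPM in the knockdown-labelled libraries 1, 2 and 3. Here control 3 lay above knockdown 3, and knockdown 2 lay far above all the others. The log2 fold change of MT-RNR2 was 0.95 with a standard error of 0.39 and a 95% interval of 0.08 to 1.82 (edgeR unadjusted p = 0.0346, adjusted p = 0.211), and it was 0.32 without knockdown 2. It passed the edgeR threshold without knockdown 3 (log2 fold change 1.23, adjusted p = 0.0477), where 14.8% of all genes passed and 6.46% were higher, and with no filter on low counts (adjusted p = 0.00205), where 3.64% passed and 1.6% were higher. Over its 14 alternatives the adjusted p ran from 0.00205 to 0.552.

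Read shares of the whole chromosome varied more within the knockdown-labelled libraries than between the groups. The 37 genes took 1.63, 1.67 and 2.32% of gene reads in control 1, 2 and 3 and 1.4, 3.39 and 1.39% in the knockdown-labelled libraries (exact permutation p = 1). Knockdown 2 held the largest share, and knockdown 1 and 3 the smallest. Messenger RNA took 1.25, 1.39 and 1.75% in the controls and 0.879, 2.06 and 0.949% in the knockdown-labelled libraries (exact permutation p = 0.7). Ribosomal RNA took 0.376, 0.277 and 0.559% and 0.524, 1.33 and 0.436% (exact permutation p = 0.3), and the difference of 0.358 percentage points was 0.0758 without knockdown 2. Thus knockdown 1 and 3 were below all controls in messenger RNA, and knockdown 2 was above all of them. The difference of the messenger share, -0.169 percentage points, became -0.551 without knockdown 2 and turned to 0.0394 without knockdown 1. The Wilson 95% intervals of the messenger shares did not overlap between any of the 6 libraries, nor did those of the ribosomal shares, and such intervals cover counting error only. In bulk RNA, fewer mitochondria per cell, a change in only part of the cells and less RNA in each mitochondrion cannot be told apart.

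**Figure D2:**
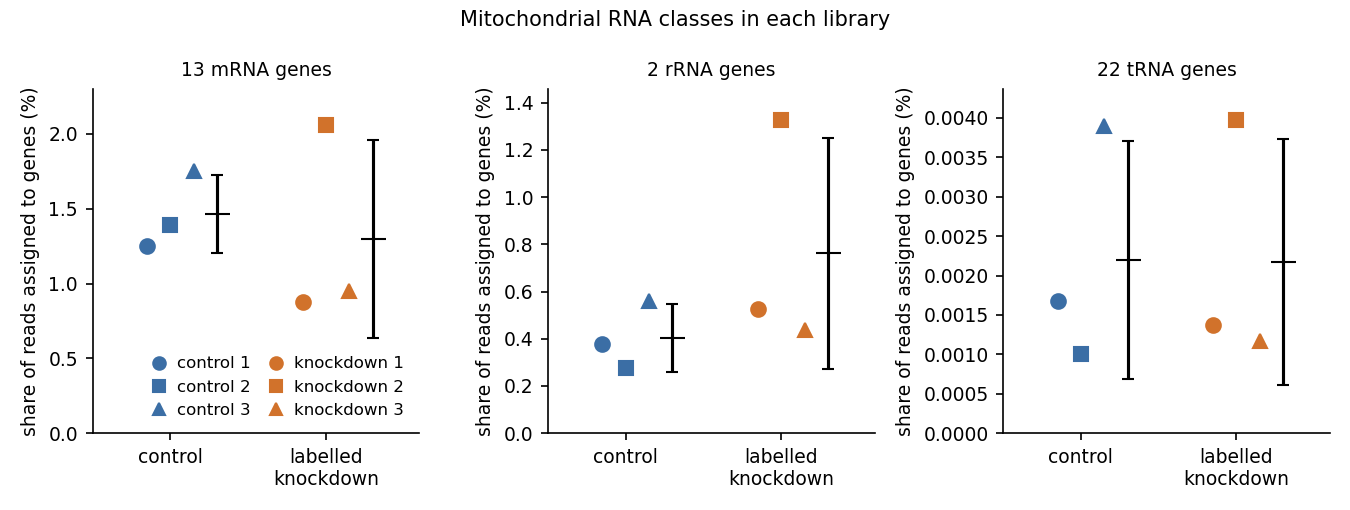
Share of reads assigned to genes, in percent, that fell in the 13 mitochondrial mRNA genes (left), the 2 rRNA genes (middle) and the 22 tRNA genes (right), for each library; black marks are group means with SD over 3 libraries. Knockdown 2 is the highest point in all 3 panels, and control 3 is the highest control.

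Across all genes, edgeR's quasi-likelihood test called 0 of the 23 mitochondrial genes with enough reads to be tested, where 0% of 18267 genes were called. At an unadjusted p of 0.05 it had 1, MT-RNR2, which was higher; 20.5% of genes passed that level, 9.93% higher and 10.6% lower. DESeq2 called 0 of the 23, where 6.33% of all genes were called, limma voom 0, where 0% were, and edgeR with the replicate block 0, where 0.104% were. Without control 3, edgeR called 0 of the members, where 0.0212% of all genes were called. The median log2 fold change of the 23 was 0.07, beside 0.02 over all genes tested, with 13 values above 0 and 10 below. None of the 23 had CPM values that separated the groups, where 26.8% of all genes tested did. The other 14 members, all transfer RNAs, had too few reads for the filter.

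**Figure D3:**
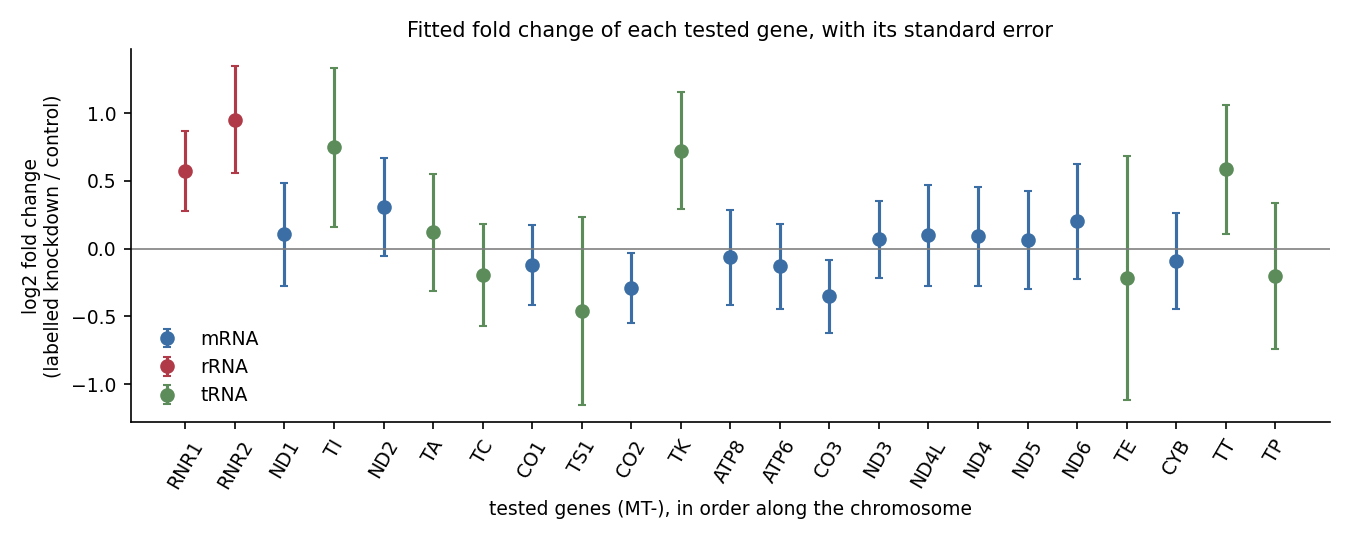
Log2 fold change of the knockdown-labelled libraries against controls for the 23 tested genes in order along the chromosome, with the standard error from edgeR as bars, for mRNA (blue), rRNA (red) and tRNA (green). The rRNA values of 0.57 and 0.95 lie above those of all 13 mRNAs, which run from -0.35 to 0.31.

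The messengers of cytochrome oxidase, complex IV of the chain, were the most abundant. MT-CO1 stood at 4198, 5116 and 6114 CPM in control 1, 2 and 3 and at 3639.9, 7251 and 3277 CPM in the knockdown-labelled libraries 1, 2 and 3. MT-CO2 stood at 2353, 2553 and 3321 CPM in control 1, 2 and 3 and at 1628, 3192 and 1907 CPM in the knockdown-labelled libraries 1, 2 and 3. MT-CO3 stood at 3254, 3836 and 4239.5 CPM in control 1, 2 and 3 and at 2047, 4342 and 2486 CPM in the knockdown-labelled libraries 1, 2 and 3. In all 3, knockdown 1 and 3 were below every control, and knockdown 2 was above every control for MT-CO1 and MT-CO3 and between control 2 and control 3 for MT-CO2. MT-CO3 had the lowest fold change of the 13 messengers (log2 fold change -0.35 with SE 0.27, edgeR adjusted p = 0.48; 95% interval -0.94 to 0.24). For MT-CO2 it was -0.29 and for MT-CO1 -0.12, with standard errors of 0.26 and 0.30. Together the complex IV messengers made up 79.5, 83.2 and 77.9% of mitochondrial messenger reads in the controls and 78.6, 75.2 and 79.1% in the knockdown-labelled libraries, which overlapped (exact permutation p = 0.4).

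Complex I, the NADH dehydrogenase, takes 7 subunits from the mitochondrial chromosome. MT-ND3, a small membrane subunit, had the highest level of them per kilobase. MT-ND3 was measured at 431, 410.0 and 597 CPM in control 1, 2 and 3 and at 341, 769 and 398 CPM in the knockdown-labelled libraries 1, 2 and 3. MT-ND2 stood at 133, 88.1 and 189.6 CPM in control 1, 2 and 3 and at 124, 280.4 and 105 CPM in the knockdown-labelled libraries 1, 2 and 3. MT-ND4 lay at 489, 449.9 and 767 CPM in control 1, 2 and 3 and at 416, 1034 and 367 CPM in the knockdown-labelled libraries 1, 2 and 3. In each of these control 3 and knockdown 2 were the highest of their groups and the groups overlapped. MT-ND1 stood at 188, 129 and 317 CPM in control 1, 2 and 3 and at 152, 375 and 156 CPM in the knockdown-labelled libraries 1, 2 and 3. For MT-ND5, a large proton-pumping subunit, the values were 184, 161 and 304 CPM in the controls and 166, 378 and 135 CPM in the knockdown-labelled libraries. MT-ND4L, the smallest of the subunits by length here, had 81.7, 68.8 and 126 CPM in the controls and 65.5, 171 and 59.8 CPM in the knockdown-labelled libraries. None of these was separated by group either.

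All 7 complex I messengers had log2 fold changes above 0, from 0.07 to 0.31, and all 6 messengers of the other complexes had values below 0, from -0.35 to -0.06. The lowest edgeR adjusted p among the 13 was 0.48, and MT-ND3, MT-ND4, MT-ND4L and MT-ND5 changed sign to values down to -0.04 with the replicate block or with limma voom. As a share of mitochondrial messenger reads, complex I made up 12.4, 9.61 and 13.4% in control 1, 2 and 3 and 13.9, 15.6 and 12.8% in the knockdown-labelled libraries (exact permutation p = 0.2, adjusted p = 0.44). Knockdown 3 lay below control 3, so the shares overlapped. The comparison of this share was not among those planned at the start. The difference of 2.3 percentage points was 1.2 without control 2 and 1.53 without knockdown 2. Within that share, MT-ND2 was at 1.08, 0.637 and 1.08% and 1.34, 1.43 and 1.09%, and MT-ND3 at 3.49, 2.96 and 3.4% and 3.67, 3.91 and 4.1%. These 2 of the 13 messengers had a higher share in every library labelled knockdown than in every control, MT-ND2 by a narrow margin, and they were singled out after their values were seen. None of the 13 had a lower share throughout. In CPM, 12.5% of all genes tested were higher and 14.3% lower in every library labelled knockdown. That is a measure unlike these shares, which are parts of 1 total and tied to each other.

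For the single messenger of complex III, MT-CYB stood at 403, 435 and 678 CPM in control 1, 2 and 3 and at 311, 805 and 308 CPM in the knockdown-labelled libraries 1, 2 and 3 (log2 fold change -0.09 with SE 0.36, edgeR adjusted p = 0.911). ATP synthase, complex V, has a pair of messengers here. MT-ATP6 stood at 467, 454 and 690.4 CPM in control 1, 2 and 3 and at 312, 775 and 385 CPM in the knockdown-labelled libraries 1, 2 and 3. MT-ATP8 had 117, 108 and 169.6 CPM in the controls and 73.8, 216 and 88.2 CPM in the knockdown-labelled libraries. All 3 were lower in knockdown 1 and 3 than in every control and higher in knockdown 2 than in every control. Their log2 fold changes were -0.09, -0.13 and -0.06, and each turned positive without control 3.

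The 13 messengers moved together from library to library. Relative to the control mean of each gene, the median over the 13 of the log2 level was -0.21, -0.28 and 0.42 in control 1, 2 and 3 and -0.49, 0.71 and -0.60 in the knockdown-labelled libraries. Knockdown 2 exceeded every control in 12 of 13 messengers, knockdown 1 was under every control in 9, and knockdown 3 in 11. Without knockdown 2, the log2 fold changes of the 13 were all negative, from -0.74 to -0.26, and 0 of the members passed the edgeR threshold (8 members were lower at an unadjusted p of 0.05, where 11.2% of all genes were).

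The 13 messengers differed widely in level. Per kilobase of annotated length, MT-CO3 averaged 4817 ± 632 CPM in the controls (SD, n = 3), MT-CO2 4009 ± 748 and MT-CO1 3335 ± 621. These 3 overlapped with their neighbours in this order and stood above all the rest. MT-ND3 followed alone at 1385 ± 296 CPM per kilobase. Below it came MT-ATP6, MT-ATP8, MT-CYB, MT-ND4, MT-ND4L, MT-ND1, MT-ND2, MT-ND5 and MT-ND6, from 789 down to 64, each overlapping with the next over the 3 controls. In the knockdown-labelled libraries the means of the same genes were 3774 for MT-CO3, 1452 for MT-ND3 and 73.4 for MT-ND6. MT-CO3 was the highest and MT-ND6, from the other strand, the lowest in all 6 libraries, 42.9 to 117 times apart.

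**Figure D4:**
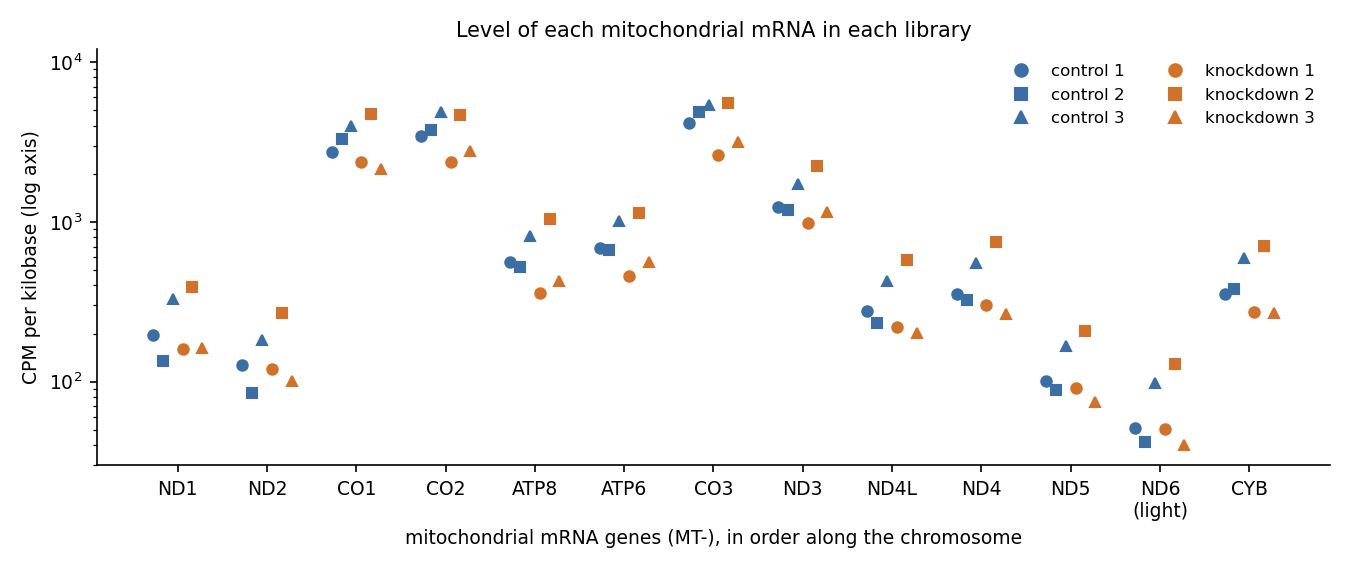
CPM per kilobase, on a log axis, of the 13 mitochondrial mRNA genes in order along the chromosome, 1 point per library. The 3 cytochrome oxidase genes lie highest and MT-ND6, the light-strand gene, lowest, and within nearly every gene control 3 (blue triangle) and knockdown 2 (orange square) are the highest points of their groups.

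Some neighbours share bases, and there the counts are those of a joint messenger. MT-ATP8 and MT-ATP6 are read from 1 messenger in overlapping frames, as are MT-ND4L and MT-ND4. The stretches from GENCODE 29 (GRCh38, plus strand) are shown because a read lying in both genes can be set aside as ambiguous, under a setting that was not given in the sources used here. Capitals mark the bases that belong to both genes, 46 for the first pair and 7 for the second, and each overlap opens with the start codon of the second gene.
MT-ATP8, end, chrM:8507-8572: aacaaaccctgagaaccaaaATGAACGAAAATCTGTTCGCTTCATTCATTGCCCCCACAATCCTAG
MT-ATP6, start, chrM:8527-8592: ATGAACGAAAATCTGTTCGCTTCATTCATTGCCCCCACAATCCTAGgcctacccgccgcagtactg
MT-ND4L, end, chrM:10740-10766: cataacctaaacctactccaATGCTAA
MT-ND4, start, chrM:10760-10786: ATGCTAAaactaatcgtcccaacaatt
Per kilobase, MT-ATP8 stood at 0.754 to 0.915 times MT-ATP6 over the 6 libraries, and MT-ND4L at 0.71 to 0.775 times MT-ND4. Both ratios held to this narrow range while the CPM of MT-ATP6 ran from 312 to 775 and that of MT-ND4 from 367 to 1034.

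From the light strand, MT-ND6 is the only messenger (positions 14149 to 14673, minus strand); it encodes a membrane subunit of complex I. MT-ND6 stood at 26.9, 22 and 51.9 CPM in control 1, 2 and 3 and at 26.6, 67.8 and 21.2 CPM in the knockdown-labelled libraries 1, 2 and 3 (log2 fold change 0.20 with SE 0.42, edgeR adjusted p = 0.819; 95% interval -0.73 to 1.14). Control 3 and knockdown 2 were the highest and the groups overlapped. Its share of mitochondrial messenger reads was 0.218, 0.159 and 0.296% in the controls and 0.286, 0.345 and 0.219% in the knockdown-labelled libraries (exact permutation p = 0.4). Per kilobase, MT-ND6 stood at 0.471 to 0.619 times MT-ND5, its heavy-strand neighbour. The kit marks strand, but whether the counting used it was not given in the sources used here, so reads of heavy-strand RNA opposite MT-ND6 and the light-strand transfer RNAs may be among their counts.

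Transfer RNAs, which carry amino acids to the mitochondrial ribosome and mark where the long transcripts are cut, held few reads. The 22 genes together had 367, 224 and 775 reads in control 1, 2 and 3 and 257, 713 and 226 in the knockdown-labelled libraries, which is 0.00101% to 0.00397% of gene reads (exact permutation p = 1 for the share). Control 3 and knockdown 2 had by far the most. Over all 6 libraries the 22 genes held 2562 reads, and MT-TP, the proline transfer RNA, alone held 909 of them, 35.5%. The 8 light-strand genes had a median of 168.5 reads summed over the 6 libraries and the 14 heavy-strand genes a median of 17. MT-TG, for glycine, had 0 reads in every library, which by counting error alone allows up to 0.134 to 0.169 CPM (3 counts of each TMM-scaled library total). It adjoins MT-CO3 and MT-ND3, and reads running into either can be set aside as ambiguous, so its level may be higher. In all, 5 genes, MT-TG, MT-TR, MT-TS2, MT-TL2 and MT-TV, had under 10 reads over all 6 libraries.

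**Figure D5:**
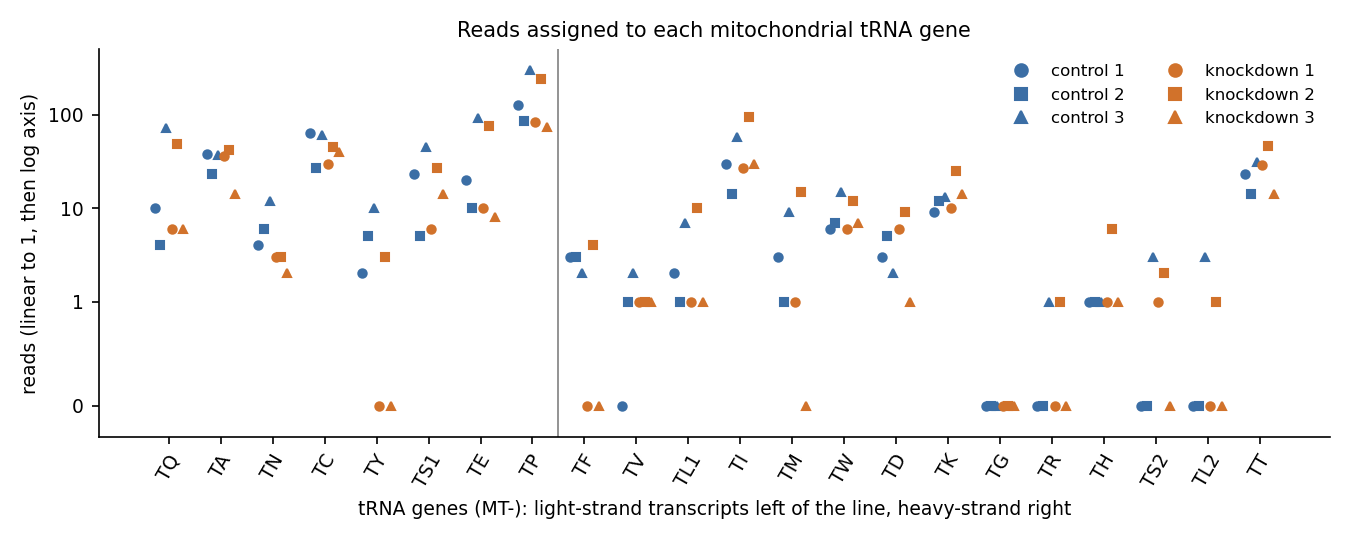
Reads assigned to each of the 22 mitochondrial tRNA genes in each library, on an axis that is linear to 1 and logarithmic above; genes left of the line are light-strand transcripts and those right of it heavy-strand transcripts. MT-TP has the most reads in all 6 libraries, MT-TG has 0, and most heavy-strand genes stay near or under 10 reads.

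The light-strand genes made up most transfer RNA reads in every library, and less of them in the knockdown-labelled libraries. Their share was 78.2, 73.7 and 81% in control 1, 2 and 3 and 67.7, 68.2 and 69.5% in the knockdown-labelled libraries. All 3 of the latter were below all 3 controls, with means of 77.6 ± 3.72% and 68.4 ± 0.916% (SD, n = 3 each; exact permutation p = 0.1, the smallest this test can give here, adjusted p = 0.275). Counting error is wide here: the Wilson 95% interval ran from 67.5% to 79% in control 2, the lowest control, and from 63.2% to 75.1% in knockdown 3, the highest of the other group. In reads, the light-strand genes had 287, 165 and 628 in the controls and 174, 486 and 157 in the knockdown-labelled libraries, and the heavy-strand genes 80, 59 and 147 and 83, 227 and 69. Both sets of reads overlapped between groups, while their proportion did not. The adjusted p of this share is over 11 values, among them the ribosomal to messenger ratios that were added after seeing the data. Those ratios also had an exact permutation p = 0.1, and including them made the adjusted p of this share lower. With 1 library left out, the difference of means ran from -11.2 to -7.49 percentage points, and its sign could not change, since the groups did not overlap. Strand here is that of the annotated gene, since whether the counting used strand was not given in the sources used here. Reads that run from a transfer RNA into an adjoining gene can also be set aside as ambiguous. The part of either in these shares was not tested.

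Of the transfer RNAs behind these shares, 6 are shown, the 4 light-strand genes and the heavy-strand gene with the most reads, and the gene without reads, as GENCODE 29 transcripts (GRCh38, 5′ to 3′, in the sense of the RNA, without the tail added after transcription): the light-strand genes MT-TP, MT-TC (cysteine), MT-TA (alanine) and MT-TE (glutamate), then the heavy-strand genes MT-TI (isoleucine) and MT-TG. Capitals mark bases that a neighbouring gene also covers, MT-TY at the start of MT-TC and MT-TQ, on the other strand, at the end of MT-TI.
MT-TP, chrM:15956-16023, minus strand: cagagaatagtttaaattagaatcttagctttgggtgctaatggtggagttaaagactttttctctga
MT-TC, chrM:5761-5826, minus strand: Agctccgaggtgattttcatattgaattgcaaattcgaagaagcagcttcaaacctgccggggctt
MT-TA, chrM:5587-5655, minus strand: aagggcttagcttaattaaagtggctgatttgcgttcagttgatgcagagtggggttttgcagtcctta
MT-TE, chrM:14674-14742, minus strand: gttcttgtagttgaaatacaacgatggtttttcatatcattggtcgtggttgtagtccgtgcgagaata
MT-TI, chrM:4263-4331, plus strand: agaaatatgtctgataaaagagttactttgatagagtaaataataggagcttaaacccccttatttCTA
MT-TG, chrM:9991-10058, plus strand: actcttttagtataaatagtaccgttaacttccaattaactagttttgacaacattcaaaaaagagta
MT-TP had 127, 85 and 300 reads in the controls and 83, 241 and 73 in the knockdown-labelled libraries. MT-TE had 20, 10 and 91 and 10, 76 and 8 reads, so that control 3 and knockdown 2 held most of them. MT-TC was steadier, at 63, 27 and 61 and 30, 45 and 40 reads, as was MT-TA at 38, 23 and 37 and 36, 42 and 14. MT-TI had 30, 14 and 58 and 27, 95 and 30 reads. None of the 5 with reads was separated by group.

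Only 8 transfer RNA genes had enough reads to be tested, 5 light-strand (MT-TA, MT-TC, MT-TS1, MT-TE and MT-TP) and 3 heavy-strand (MT-TI, MT-TK and MT-TT). The 3 heavy-strand genes had log2 fold changes of 0.75, 0.72 and 0.59, which became -0.0615, 0.29 and 0.14 without knockdown 2. Of the light-strand genes MT-TA was at 0.12 and the other 4 from -0.46 to -0.19; all 5 lay below 0 without knockdown 2. Standard errors ran from 0.37 to 0.90, and the lowest edgeR adjusted p was 0.364. MT-TQ, for glutamine, was among the untested genes although it had 10, 4 and 72 reads in the controls and 6, 49 and 6 in the knockdown-labelled libraries. Of the 14 untested genes, MT-TN (asparagine) had 4, 6 and 12 reads in the controls and 3, 3 and 2 in the knockdown-labelled libraries, lower in CPM in every one of the latter, and MT-TH (histidine) had 1, 1 and 1 and 1, 6 and 1 reads, higher in CPM in every one, although 5 of the 6 libraries held 1 read each. The other 12 overlapped between groups. Among all genes tested, 14.3% were lower and 12.5% higher without overlap. Libraries with 1 read differ in CPM only by their scaled totals, so the order for MT-TH rests mainly on those totals.

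Copies of mitochondrial genes in the nuclear genome limit what can be counted, since a read that fits both places equally well is not unique. Of all stretches of 50 bases in MT-CO1, 49.5% also occur in another annotated transcript, more of them in MTCO1P12 than in any other gene, and the shares were 46.7% for MT-ATP6, 43.6% for MT-ND2, 30.6% for MT-CO3 and 29% for MT-CO2. In MT-ND3, MT-ND4L, MT-RNR1 and all 22 transfer RNAs, 0% were shared with another annotated transcript. MT-ND1 shared 22.1% and MT-ND6 17.9%. MT-RNR2 shared 14%, more of it with MTRNR2L12 than with any other gene. Levels of the genes that shared over 10% are therefore uncertain against those of the others. A fold change between groups is within each gene, while the class ratios and shares compare across genes. Only annotated transcripts were searched, so copies elsewhere in the nuclear genome were not seen. Levels of the other genes, the transfer RNAs among them, may thus be uncertain as well. With only the 6 messengers that shared under 10% as the denominator, the ribosomal to messenger ratio was 1.85 times as high in the knockdown-labelled libraries, with no overlap.

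The 401 annotated nuclear copies themselves held 801 to 1860 reads per library, 0.305% to 0.369% of the number in the mitochondrial genes. MTATP6P1, a pseudogene on chromosome 1 (633696 to 634376, plus strand), had 536, 448 and 723 reads in the controls and 228, 664 and 361 in the knockdown-labelled libraries, with the same libraries high as for MT-ATP6. MTRNR2L12, a copy of MT-RNR2 on chromosome 3, had 27, 29 and 27 and 39, 76 and 31 reads. It was higher in every library labelled knockdown (log2 fold change 1.02 with SE 0.37, edgeR adjusted p = 0.167), where 12.5% of genes were, had a log2 fold change of 0.56 without knockdown 2, and passed without knockdown 3 (adjusted p = 0.0351; over its alternatives up to 0.473). MTCO1P12, MTND4P12 and MTND2P28, the other copies with most reads, had log2 fold changes of -0.26, 0.07 and 0.18. Values of such copies are uncertain, since their reads cannot be told apart from mitochondrial ones where the bases are the same.

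Nuclear genes that make, cut, protect and copy these molecules were read from 5 lists, and 0 of their 60 members passed the edgeR threshold. At an unadjusted p of 0.05, 9 were higher and 3 lower, 20% of the 60, where 20.5% of all genes were past it in either direction. In the transcription machinery (10 genes, median log2 fold change 0.04), the mitochondrial RNA polymerase POLRMT averaged 63.6 ± 7.26 against 60.7 ± 16.5 CPM (mean ± SD, n = 3, here and in the next 2 paragraphs with controls first and the knockdown-labelled libraries second). TFAM, which packs the DNA and starts transcription, averaged 158 ± 7.67 against 191 ± 38.6 CPM, the initiation factor TFB2M 10.4 ± 0.682 against 13.3 ± 1.72 CPM, and the elongation factor TEFM 24.9 ± 1.45 against 23.1 ± 2.46 CPM. TFB1M, a methyltransferase of mitochondrial ribosomal RNA, averaged 18.5 ± 1.22 against 14.6 ± 2.78 CPM. TFB2M was higher and TFB1M lower in every library labelled knockdown, where 12.5% and 14.3% of genes were, and neither passed the test.

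Among 24 genes of RNA processing and modification (median 0.09), 4 were higher and 0 lower at an unadjusted p of 0.05, where 9.93% of all genes were higher and 10.6% lower. PTCD1, a mitochondrial pentatricopeptide protein, stood at 14.2, 11.8 and 13.4 CPM in control 1, 2 and 3 against 26.1, 23.7 and 18.6 CPM in the knockdown-labelled libraries, every one of them above the controls (log2 fold change 0.79 with SE 0.19, edgeR adjusted p = 0.0916, DESeq2 adjusted p = 0.00775). Over its 14 alternatives its adjusted p ran from 0.00751 to 0.418. PUS1, a pseudouridine synthase of transfer RNA, averaged 31.3 ± 2.54 against 46.4 ± 9.52 CPM and MTPAP, the mitochondrial poly(A) polymerase, 70.3 ± 3.76 against 91.8 ± 11.6 CPM. ELAC2, which trims the trailing end of transfer RNA, averaged 216 ± 10.2 against 177 ± 39 CPM.

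The 7 genes of RNA stability and decay had a median of 0.14, with 0 past an unadjusted p of 0.05, where 20.5% of all genes were. LRPPRC and SLIRP, partners that stabilise mitochondrial messengers, averaged 298 ± 10.8 against 312 ± 43.5 CPM and 90.2 ± 25.9 against 101 ± 29 CPM, respectively. The degrading pair PNPT1 and SUPV3L1 averaged 115 ± 4.15 against 139.5 ± 26 CPM and 81.3 ± 8.34 against 89.8 ± 16.3 CPM, respectively, and the exonuclease PDE12 78.5 ± 5.98 against 92.5 ± 10.7 CPM. For mitochondrial DNA replication (11 genes, median 0.00, 2 higher and 1 lower at that level), the polymerase POLG averaged 94.5 ± 12.5 against 131 ± 19.8 CPM, the helicase TWNK 45.7 ± 6.38 against 65.7 ± 13.6 CPM and the primase-polymerase PRIMPOL 13.4 ± 2.05 against 7.95 ± 2.04 CPM. Over all genes tested, 9.93% were higher and 10.6% lower at that level, the shares to set beside this list and the next. Of the 8 nuclear regulators (median 0.17, 3 higher and 2 lower), the coactivator PPRC1 stood at 70.7, 58.9 and 61.9 CPM in control 1, 2 and 3 against 108, 126 and 84.4 CPM in the knockdown-labelled libraries (log2 fold change 0.73, edgeR adjusted p = 0.0914, DESeq2 adjusted p = 0.00862; over 14 alternatives 0.00527 to 0.418). The transcription factors YY1 and GABPA averaged 149 ± 10.6 against 200.4 ± 23.4 CPM and 125 ± 11.3 against 96.2 ± 11.1 CPM, respectively. Among the genes of these lists named here, PTCD1, PPRC1, PUS1, MTPAP and PRIMPOL passed edgeR without knockdown 3. The named genes include those with the smallest p of each list, and the unnamed members were not followed in that setting. The 14.8% of all genes that passed there is therefore no like measure for the named genes.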

How the data were processed

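Total RNA of 6 HEK293 libraries was sequenced with a stranded kit after Ribo-Zero Gold. The authors deposited 1 table of raw counts per Ensembl gene, made with bcl2fastq 2.18, TopHat2 2.0.13 and HTSeq on hg38, per the submitters' processing notes; the HTSeq settings, annotation release and read length were not given in the sources used here. Symbols and positions came from GENCODE 29 (GRCh38), which matched 57055 of 60675 gene rows; 5 rows that name no gene were left out, among them reads outside genes, 21.5% to 37.5% of uniquely aligned reads.

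edgeR 4.0.16 (R 4.3.3; TMM, filterByExpr, quasi-likelihood F test, two-sided, Benjamini-Hochberg over 18267 genes, threshold 0.05) was fitted on the whole table. Its standard errors are the fold change over the square root of F, and 95% intervals use its total degrees of freedom. It was tested on simulated counts. Class shares, strand shares and ratios were compared by exact permutation of libraries. Alternatives were other normalizations, DESeq2 1.42.0, limma 3.58.1 voom, other filters and denominators, the replicate block and each library left out. Sequences and shared stretches came from the GENCODE transcripts. Named genes are all members, the 3 with the smallest p and 8 set genes of the 5 lists, and the 5 nuclear copies with most reads. Members and lists were chosen with earlier results of these data known, and the ribosomal to messenger ratio, with its alternatives, was added after seeing the data. The complex I and complex IV shares were also not among the comparisons planned at the start. Replicates differed by more than sampling noise, with a chi-square per degree of freedom of at least 11.6 between any pair.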

Additional observations from a re-analysis of the deposited data

How the results depend on the processing

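Among the members, edgeR called 0 genes under all alternatives but 2, no filter and leaving out knockdown 3, where it called 1, MT-RNR2. Over all genes 0 were called, or 1157 with DESeq2, 1574 with no filter, 19 with the replicate block and 0 to 2815 with 1 library left out (2815 without knockdown 3, 4 without control 3 and 0 without any other). Same-numbered libraries correlated at 0.11, -0.17 and -0.12 in their deviations from the group means, and differently numbered ones at -0.0769 to 0.189. That gave no sign of pairing by number. It cannot exclude pairing, since the deviations within a group are tied to each other. With the replicate block and with voom, the log2 fold changes of MT-ND3, MT-ND4L, MT-ND4, MT-ND5 and MTND4P12 turned to -0.0116, -0.0409, -0.0418, -0.0339 and -0.0441, and to -0.00688, -0.0262, -0.0344, -0.0292 and -0.0335; MOCS2 turned to 0.00949 with upper-quartile factors. The tRNA share difference of -2.35e-05 percentage points turned to 2.03e-05 over nuclear protein-coding reads. The cause was not tested. With 1 library left out, differences ran from -0.476 to 0.526 percentage points for all mitochondrial reads, -0.551 to 0.0394 for mRNA and -0.000924 to 0.000827 for tRNA, lowest without knockdown 2. The rRNA share (0.0758 to 0.521), the complex I share (1.2 to 3.09) and the light-strand mRNA share kept their direction. The rRNA to mRNA ratio and the light-strand tRNA share could not reverse, since their groups did not overlap. Of 49 genes named, 25 changed sign at least once, with log2 fold changes from -0.46 to 0.51 (MT-ND1), -0.0615 to 1.45 (MT-TI), -0.26 to 0.61 (MT-ND2), -0.16 to 0.47 (MT-TA), -0.52 to 0.0234 (MT-TC), -0.58 to 0.0752 (MT-CO1), -1.09 to 0.41 (MT-TS1), -0.71 to 0.20 (MT-ATP8), -0.63 to 0.11 (MT-ATP6), -0.38 to 0.28 (MT-ND3), -0.56 to 0.38 (MT-ND4L), -0.55 to 0.36 (MT-ND4), -0.53 to 0.38 (MT-ND5), -0.50 to 0.65 (MT-ND6), -1.98 to 1.30 (MT-TE), -0.72 to 0.17 (MT-CYB), -0.94 to 0.57 (MT-TP), -0.0941 to 0.0267 (MOCS2), -0.25 to 0.12 (POLRMT), -0.0104 to 0.17 (LRPPRC), -0.0353 to 0.37 (SLIRP), -0.00672 to 0.25 (SUPV3L1), -0.75 to 0.0139 (MTATP6P1), -0.61 to 0.42 (MTND4P12), -0.28 to 0.64 (MTND2P28). Low read numbers limit what the tRNA genes can show: 14 of 22 had too few reads to test, and why they had so few was not tested.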
